A study of Homo sapiens with 21 samples.

Results

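Glycolysis genes were examined in MDA-MB-453 cells, a human breast cancer cell line. The 10 genes, taken by symbol from the deposited table of 58735 genes, were HK1, HK2, PFKP, PFKFB3, PFKFB4, ALDOA, PGK1, ENO1, PKM and LDHA. All 10 were found and all 10 passed the filter on low values. The study treated the cells with calcium or cadmium to test whether these metals act through the estrogen-related receptor ESRRB, a nuclear receptor and transcription factor. It used GSK4716 as an agonist of ESRRB and diethylstilbestrol (DES) as its antagonist.

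The 21 RNA-seq libraries form 7 groups of 3. Cells were left untreated (control) or given 10 mM calcium, 10 μM cadmium, 5 μM GSK4716 or 10 μM DES for 24 h. In the last pair of groups, either metal was added 3 h after DES, at the same doses. The total time in DES may thus be longer there than with DES alone. All groups were wild-type cells of this single line, kept in 5% charcoal-stripped serum for the day before, and mRNA was captured by its poly-A tail. Calcium and GSK4716 were given without serum and cadmium in 1% stripped serum, and a single untreated group served as the control, so serum and treatment cannot be told apart for at least 1 of these agents. The labels do not say whether the 3 libraries of a group came from separate cultures. The p-values therefore measure the spread between these libraries, which may be technical.

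Glycolysis splits glucose into pyruvate in the cytosol and yields ATP and NADH. Hexokinases trap glucose in the cell as glucose 6-phosphate, and phosphofructokinase, the main point of control, commits it to the pathway. The PFKFB enzymes set the level of fructose 2,6-bisphosphate, the activator of phosphofructokinase. Aldolase cleaves the resulting sugar, phosphoglycerate kinase and pyruvate kinase make ATP, enolase forms phosphoenolpyruvate, and lactate dehydrogenase reduces pyruvate to lactate. Many tumour cells run the pathway at a high rate with oxygen present, and several of its genes are well-known targets of the hypoxia-inducible factor HIF-1, which binds the hypoxia response element (HRE).

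Windows around start sites are shown for PFKP and the hexokinases because much of the account below concerns these genes. That of LDHA is shown because it held the most HRE cores of the 10. For each gene the RefSeq window (GRCh38.p14, 300 bases around a start site) nearest to the start of the Ensembl canonical transcript was taken. All 10 genes matched. For 8 of them the start sites were the same, while they lay 217 bases apart for HK1 and 422 for PFKP. The PFKP window thus did not hold the canonical start. For HK1 and PFKP the window may not be the promoter that these cells used. Capitals mark HRE cores, ACGTG or GCGTG on either strand.
HK1, chr10:69318814-69319113, plus strand: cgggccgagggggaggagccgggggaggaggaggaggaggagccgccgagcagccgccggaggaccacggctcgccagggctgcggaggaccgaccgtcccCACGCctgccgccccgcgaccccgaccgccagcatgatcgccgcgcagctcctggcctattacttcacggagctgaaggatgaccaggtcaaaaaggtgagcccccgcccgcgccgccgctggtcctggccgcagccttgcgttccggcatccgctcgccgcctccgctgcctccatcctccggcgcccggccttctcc
HK2, chr2:74833877-74834176, plus strand: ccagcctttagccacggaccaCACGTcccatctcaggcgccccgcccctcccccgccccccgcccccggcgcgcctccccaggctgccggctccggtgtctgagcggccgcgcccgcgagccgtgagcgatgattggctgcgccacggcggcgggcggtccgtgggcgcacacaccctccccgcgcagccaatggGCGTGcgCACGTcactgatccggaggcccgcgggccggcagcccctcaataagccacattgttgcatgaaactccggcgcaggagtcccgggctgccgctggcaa
PFKP, chr10:3067720-3068019, plus strand: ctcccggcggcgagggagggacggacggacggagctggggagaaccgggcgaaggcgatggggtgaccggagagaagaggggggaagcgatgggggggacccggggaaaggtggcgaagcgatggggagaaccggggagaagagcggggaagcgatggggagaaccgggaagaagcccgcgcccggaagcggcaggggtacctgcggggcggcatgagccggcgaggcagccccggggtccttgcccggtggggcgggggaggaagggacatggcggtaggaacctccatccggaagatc
LDHA, chr11:18394313-18394612, plus strand: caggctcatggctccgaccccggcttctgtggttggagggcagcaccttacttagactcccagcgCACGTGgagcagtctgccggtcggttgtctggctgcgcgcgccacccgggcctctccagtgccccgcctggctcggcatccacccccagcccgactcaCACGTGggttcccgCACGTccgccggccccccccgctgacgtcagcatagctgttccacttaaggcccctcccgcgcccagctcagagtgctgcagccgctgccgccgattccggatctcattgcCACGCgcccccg
The LDHA window held 6 HRE cores, 4 of them inside 2 copies of the E-box CACGTG, which contains the core on both strands. PGK1 held 4 cores, HK2 held 3, ENO1 and PFKFB3 held 2 each, and HK1, PFKFB4, ALDOA and PKM held 1 each. The PFKP window held 0. At least 1 core stood in 9 of the 10 windows, against 48.4% of the 35116 RefSeq windows of 300 bases. The ERR element TNAAGGTCA, which the study searched for, and its core AAGGTCA stood in none of the 10 windows. They were found in 0.951% and 3.92% of all windows. The windows of the 10 genes held 68% to 74.3% G and C, against a median of 58.7% over all windows. These are matches of letters in short windows and show no binding.

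The libraries held 14435925 to 28424805 fragments on genes (median 18314738), and each of the 10 genes had at least 105 fragments in every library. Levels are given as FPKM, in which fragments are divided by the length of the gene and the size of the library. The FPKM rest on a library size of 0.693 to 1.15 times these fragments. That added scaling was strongest in DES with cadmium replicate 1. Mitochondrial transcripts made up 7.70% to 8.19% of the fragments in the control, 4.88% to 7.55% with calcium, 7.36% to 9.75% with cadmium, 8.20% to 8.84% with GSK4716 and 1.97% to 5.31% in the 9 libraries with DES. The summed FPKM of 7 luminal breast markers (KRT8, KRT18, KRT19, EPCAM, GATA3, FOXA1 and ERBB2) was 1145 to 3288 in every library, with none of them at 0. It was 1420 to 1775 in the control, 2345 to 3288 with calcium and 1145 to 1910 with DES alone. With calcium 5 of the 7 had a positive log2 fold change, among them KRT8 (means of 180 and 626 FPKM). GATA3 and FOXA1 did not rise with calcium (268 to 263 and 168 to 148 FPKM), and with DES alone they had 124 and 76.8 FPKM. Summed FPKM of 4 basal, 4 blood cell and 3 endothelial markers reached at most 1.78, 1.05 and 0.543. The 4 fibroblast markers summed to 9.35 to 32.9, and only COL1A1 of these passed the filter. The part of these values in the results below was not tested.

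Levels per length in the control show which isozymes these cells held as mRNA. HK1 and HK2 stood at nearly the same level, with 47.9 ± 6.86 and 45.5 ± 5.92 FPKM (SD, n = 3). HK3 and HKDC1, which also phosphorylate hexoses, had means of at most 0.0134 FPKM. Of the phosphofructokinase subunits, PFKL had 48.3 ± 1.07, PFKP 27.9 ± 5.83 and PFKM 6.63 ± 0.90 FPKM. Of the 10 genes, ENO1 was the highest with 268 ± 26.3 FPKM, followed by LDHA with 185 ± 73.2, PGK1 with 135 ± 28.9 and PKM with 80.7 ± 8.78. LDHB, the other main subunit of lactate dehydrogenase, had 0 to 2 fragments in all 21 libraries, at or under the floor of 3 fragments for a count of 0, which covers counting error only. The ratio of LDHA to LDHB was therefore not compared between groups. PFKFB3 had 11.5 ± 2.20 and PFKFB4 3.14 ± 1.09 FPKM. ALDOC had 6 to 95 fragments and its ratio to ALDOA was not compared.

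**Figure D1:**
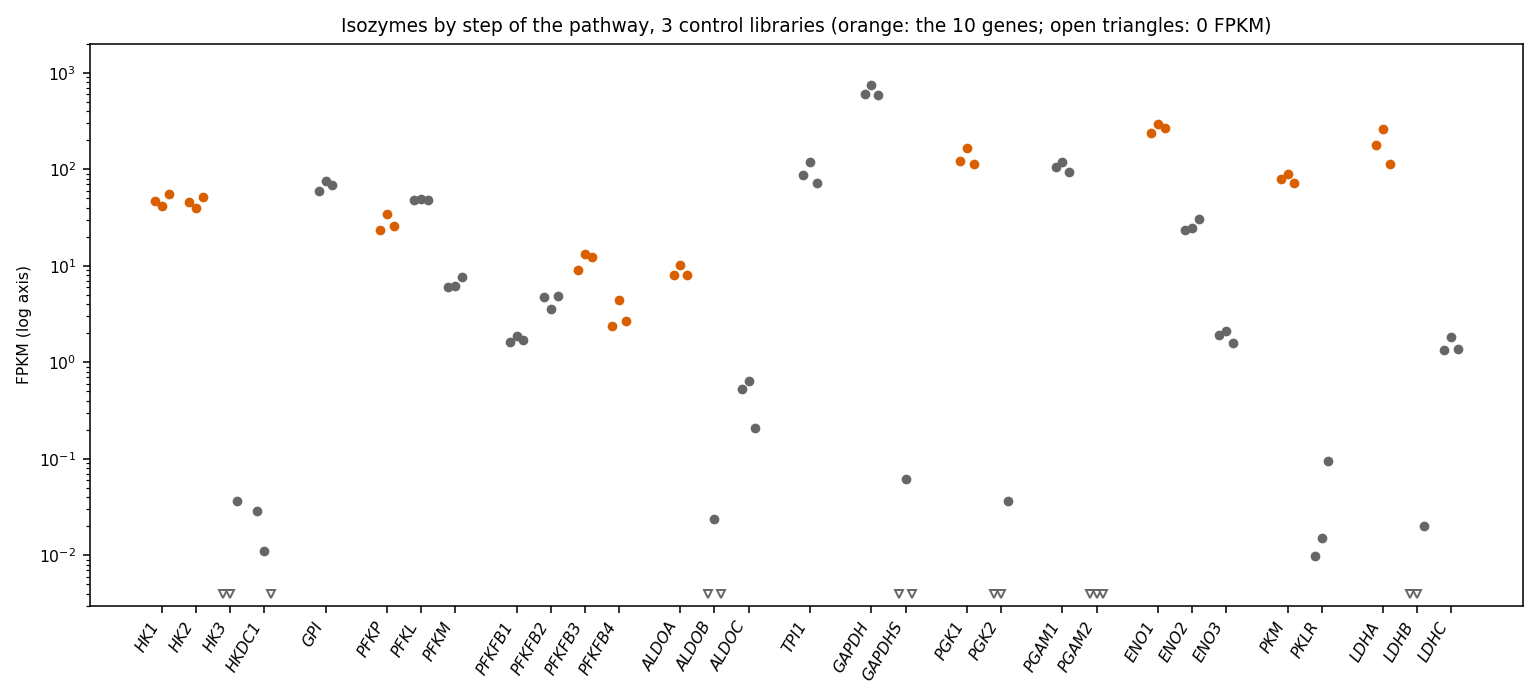
FPKM (log axis) of the isozymes at each step of glycolysis in the 3 control libraries. Each point is a library, orange points are the 10 genes described here, grey points are other isozymes, and open triangles at the lower edge are values of 0. HK1 and HK2 lie side by side, with means of 47.9 and 45.5 FPKM, whereas LDHA stands at 185 FPKM and LDHB at or near 0.

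ALDOA was listed at 8.80 ± 1.25 FPKM, far below its neighbours in the pathway. Its locus (ENSG00000149925, chromosome 16, 30064164 to 30070457, plus strand) is spanned on the same strand by AC093512.2 (30053090 to 30070420), whose fragments came to 15.9% of those of ALDOA over all libraries. How fragments that match both genes were counted is not given in the sources used here, so the values of ALDOA are uncertain. For the other 9 genes the overlapping genes held at most 2.54% of the gene's own fragments, and the pseudogenes named after a member at most 0.115%.

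In a test over all 7 groups, 6 of the 10 genes differed (limma, moderated F, adjusted p under 0.05), against 59.1% of the 14686 genes tested. PFKP had the smallest adjusted p (3.22e-05), followed by ALDOA (0.00103), PKM (0.00246), ENO1 (0.0097), PFKFB3 (0.0125) and HK2 (0.0167). HK1 (0.0834), LDHA (0.134), PGK1 (0.154) and PFKFB4 (0.574) were not called. Between the lowest and the highest of the 21 libraries the values differed 2.95-fold for ALDOA to 6.99-fold for PFKFB4.

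**Figure D2:**
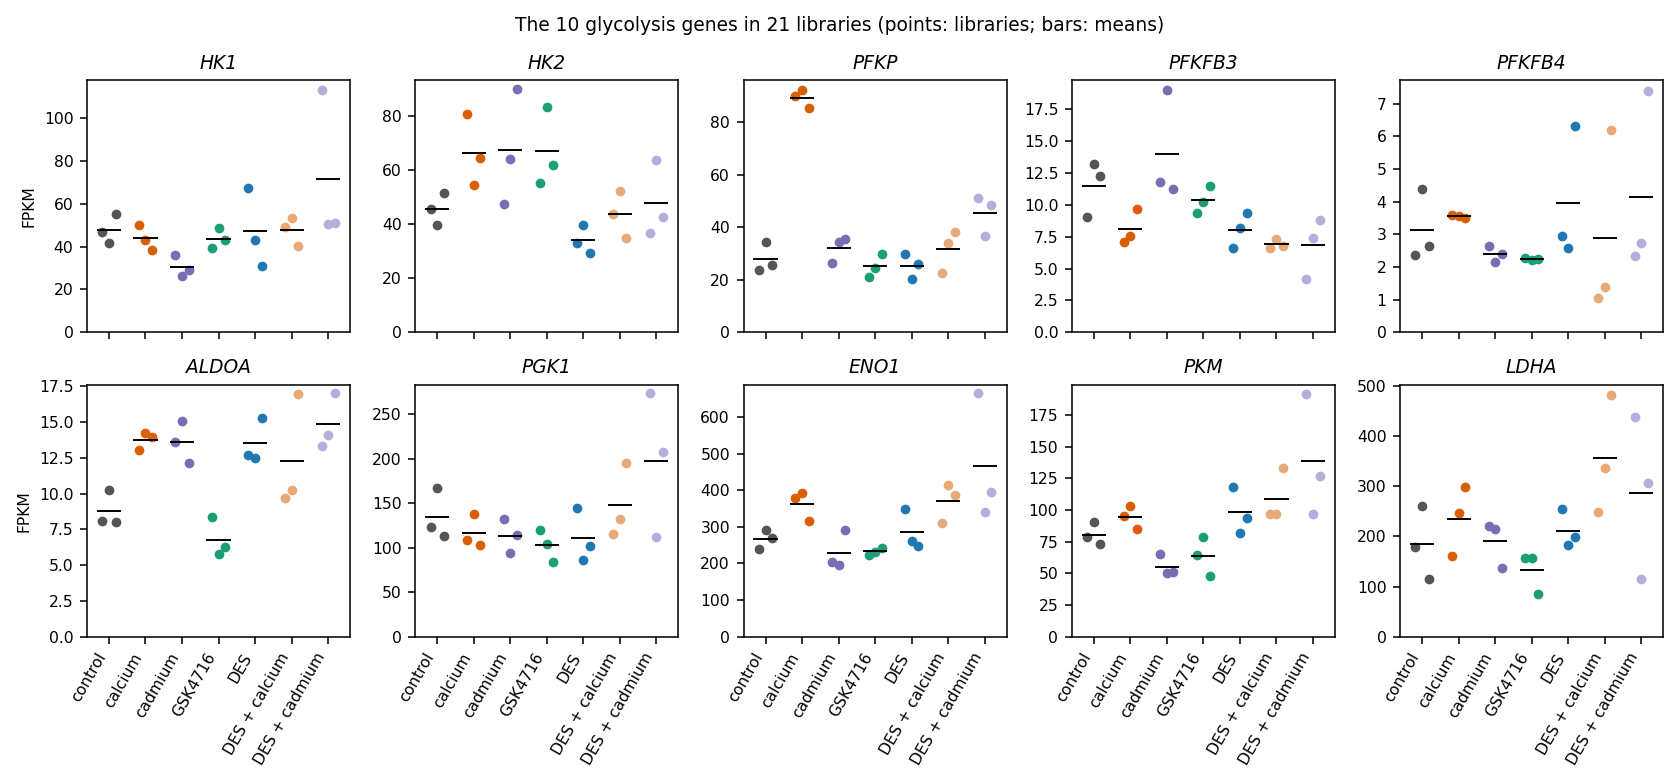
FPKM of the 10 genes in the 21 libraries, 1 panel per gene with its own axis from 0. Points are libraries and bars are the means of 3. In the PFKP panel the 3 calcium libraries, at 85.5 to 92.4 FPKM, stand above all 18 others, which reach at most 51.3.

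PFKP (ENSG00000067057, GRCh38 chromosome 10, 3066333 to 3137712, plus strand), the platelet-type subunit of phosphofructokinase, differed most of the 10 genes. It stood at 23.6, 34.6 and 25.6 FPKM in the control and at 89.9, 92.4 and 85.5 FPKM with calcium. The calcium libraries were close to each other and far above the highest control library. On the log2 scale the rise was 1.69 (standard error 0.16, 95% interval 1.30 to 2.09, limma adjusted p = 0.00951). Without control replicate 1 it was 1.58 and the adjusted p was 0.056. With no filter on low values the adjusted p was 0.073.

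Neither cadmium nor GSK4716 gave such a level of PFKP. The cadmium libraries had 26.4, 34.3 and 35.7 FPKM, and their range overlapped that of the control (log2 fold change 0.21, 95% interval -0.27 to 0.69). With GSK4716 the values were 21.1, 24.6 and 29.9 FPKM (log2 fold change -0.14, interval -0.61 to 0.33). With DES alone they were 30.0, 20.2 and 26.2 FPKM (-0.13, interval -0.64 to 0.37). All 3 groups overlapped the control, and the upper bounds of their intervals lay below the lower bound for calcium. These comparisons share the control libraries.

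In the presence of DES, calcium did not bring PFKP to this level. DES with calcium gave 22.7, 33.9 and 38.2 FPKM, which overlapped DES alone (log2 fold change 0.30, interval -0.30 to 0.89, adjusted p = 0.616). All 3 lay below every library with calcium alone, by 1.53 on the log2 scale (log2 fold change -1.53, standard error 0.21, adjusted p = 0.00381). The interaction term, the effect of calcium with DES minus that without, was -1.40 (standard error 0.31, adjusted p = 0.0342). It kept its sign with each library left out in turn, from -1.56 to -1.18, but its adjusted p then ran from 0.0354 to 0.0917 and was over 0.05 without control replicate 1 or 3, calcium replicate 1 or 2, DES replicate 3 or DES with calcium replicate 1.

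DES with cadmium had the next highest PFKP after calcium. Its libraries had 51.3, 36.5 and 48.5 FPKM, above all 3 libraries of DES alone and of cadmium alone. The separation from cadmium depended on the scaling. The log2 fold change was 0.50 (adjusted p = 0.192), and 0.16 after rescaling to total fragments on genes (adjusted p = 0.615). As a share of all FPKM in a library, PFKP overlapped between these groups, with 0.0108% to 0.0153% against 0.00912% to 0.0121% for cadmium. The difference from DES alone was 0.84 on the log2 scale (interval 0.26 to 1.41) and was not called (adjusted p = 0.291). In the order of means, calcium stood first (89.3), then DES with cadmium (45.4), cadmium (32.1), DES with calcium (31.6), control (27.9), DES (25.5) and GSK4716 (25.2 FPKM). In these FPKM, calcium and DES with cadmium were each apart from the next group, whereas the neighbours from cadmium downwards overlapped.

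The subunit balance of phosphofructokinase was read within each library, where the scaling between libraries cancels. PFKP made up 30.5%, 38.3% and 31.6% of the summed FPKM of PFKP, PFKM and PFKL in the control. With calcium its share was 62.2%, 64.5% and 70.3%. The share in every calcium library was thus above that in every other library, the highest of which was 50.7% with cadmium. The fold of the share was 1.97 (exact permutation test, p = 0.1, the smallest p that 3 libraries against 3 allow). With DES and calcium the share was 28.1%, 39.3% and 38.5%, a fold of 0.532 against calcium alone (exact p = 0.1). DES alone gave 28.5% ± 1.10 (SD, n = 3), just below the control with no overlap (exact p = 0.1). DES with cadmium gave 34.2% ± 4.21, against 45.0% ± 6.75 with cadmium alone, and these groups overlapped (fold 0.762, exact p = 0.2). PFKL, the liver-type subunit, had 42.0 ± 8.91 FPKM and PFKM, the muscle-type subunit, 5.19 ± 1.14 FPKM with calcium, and neither passed the test against the control.

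**Figure D3:**
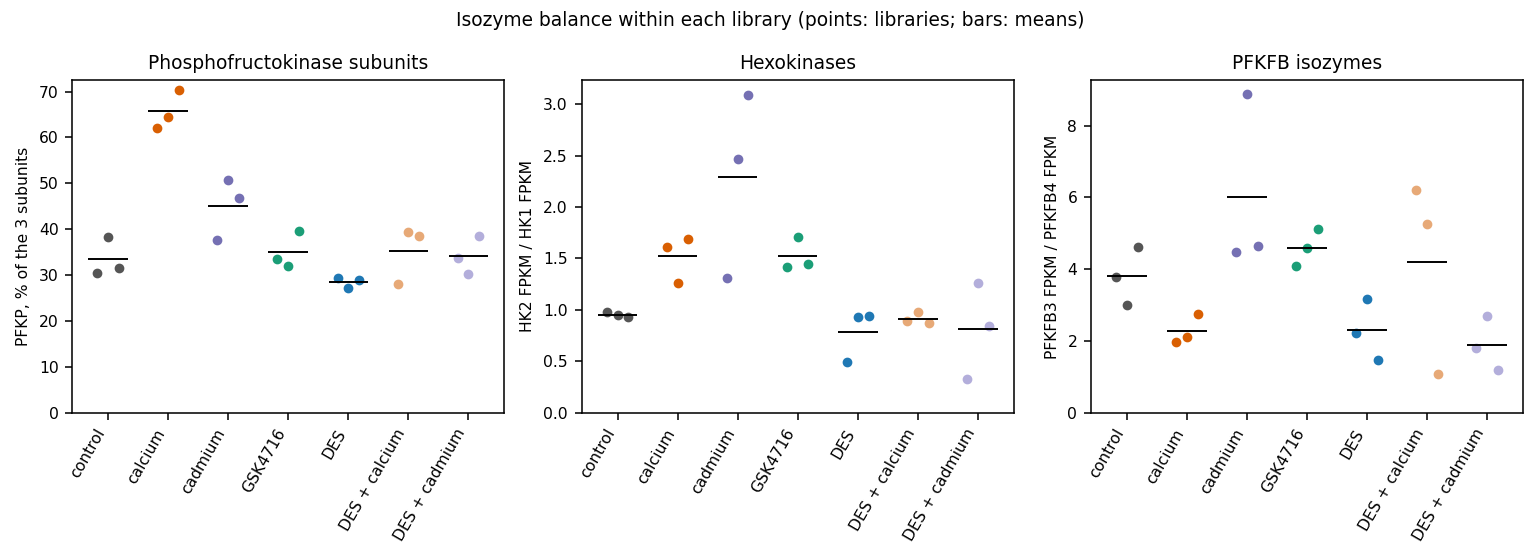
Isozyme balance within each library, as the share of PFKP in the 3 phosphofructokinase subunits (%), the ratio of HK2 to HK1 and the ratio of PFKFB3 to PFKFB4. Points are libraries and bars are means of 3. The calcium libraries stand alone in the first panel (62.2% to 70.3%), and calcium, cadmium and GSK4716 all stand above the control in the second.

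HK2 was higher relative to HK1 with calcium, cadmium and GSK4716 than in the control. HK2 (ENSG00000159399, chromosome 2, 74833981 to 74893359, plus strand), the inducible isozyme, had 45.5, 39.6 and 51.5 FPKM in the control, and HK1 (ENSG00000156515, chromosome 10, 69269984 to 69401884, plus strand), the isozyme of most tissues, 46.7, 41.7 and 55.3 FPKM. The ratio of HK2 to HK1 was therefore tightly placed at 0.974, 0.950 and 0.931. With calcium it was 1.61, 1.26 and 1.69. With cadmium it was 1.31, 2.46 and 3.09, and with GSK4716 1.41, 1.71 and 1.45. All 9 ratios lay above all 3 of the control, which the 3 comparisons share, so they are not independent of each other. The folds against the control were 1.59 for calcium, 2.26 for cadmium and 1.60 for GSK4716, each with an exact permutation p of 0.1, the smallest possible, and over all libraries left out in turn they kept their direction.

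In the groups with DES the mean ratio was not above that of the control. DES alone gave 0.490, 0.929 and 0.944, which overlapped the control. DES with calcium gave 0.891, 0.979 and 0.871, below all 3 libraries with calcium alone (fold 0.605, exact p = 0.1). DES with cadmium gave 0.324, 1.26 and 0.841, below all 3 with cadmium alone (fold 0.326, exact p = 0.1). In replicate 1 of both of these groups without calcium HK1 was high: 67.3 FPKM with DES and 113 FPKM with DES and cadmium, against 31.0 to 50.9 FPKM in replicates 2 and 3 of the same groups. In all, 32 comparisons of 4 balances were made and 11 had groups that did not overlap. None of them can pass an adjustment, since no p can be below 0.1.

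As single genes the hexokinases did not pass the test. HK2 had 54.4 to 80.7 FPKM with calcium, 47.5 to 90.2 with cadmium and 55.4 to 83.5 with GSK4716, against 39.6 to 51.5 in the control. The log2 fold changes were 0.54 (adjusted p = 0.145), 0.52 (0.242) and 0.54 (0.243, all limma). HK1 with cadmium, at 36.3, 26.1 and 29.2 FPKM, lay below every control library, with a log2 fold change of -0.65 (adjusted p = 0.103). With DES, HK2 was 32.9, 39.9 and 29.3 FPKM, a log2 fold change of -0.42 (adjusted p = 0.112). When FPKM were rescaled to the total fragments on genes, this became -0.60 and was called (adjusted p = 0.0348).

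The PFKFB enzymes make and break fructose 2,6-bisphosphate, with kinase activity dominant in PFKFB3. PFKFB3 had 9.01, 13.2 and 12.3 FPKM in the control and 7.11, 7.55 and 9.66 with calcium (log2 fold change -0.49, adjusted p = 0.206). It was highest with cadmium, at 11.8, 19.0 and 11.2 FPKM, and lowest with DES and cadmium, at 4.20, 7.41 and 8.84 FPKM. The latter pair of groups did not overlap, with a log2 fold change of -1.05 that was not called (adjusted p = 0.103). PFKFB4 was low throughout, and 1 library in each group with DES stood far above the other 2: 6.33, 6.21 and 7.40 FPKM in replicate 3 with DES alone, calcium added and cadmium added, against 1.06 to 2.95 FPKM in replicates 1 and 2. The ratio of PFKFB3 to PFKFB4 was 3.81 ± 0.805 in the control and 2.28 ± 0.413 with calcium (SD, n = 3), a fold of 0.602 with no overlap (exact p = 0.1). With DES and cadmium it was 0.316 times that with cadmium alone (exact p = 0.1).

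ALDOA, the aldolase of muscle and most tumours, had 8.11, 10.2 and 8.04 FPKM in the control, 13.0, 14.2 and 13.9 with calcium and 12.7, 12.5 and 15.3 with DES. Both treated groups lay wholly above the control. The log2 fold changes were 0.64 with calcium (standard error 0.13, adjusted p = 0.0459) and 0.62 with DES (standard error 0.17, adjusted p = 0.0334). Both calls ended when FPKM were rescaled to total fragments (adjusted p = 0.0853 and 0.120), that with calcium ended without any 1 of the 6 libraries, and that with DES ended without any 1 of 5, all but DES replicate 1. With a replicate block neither was called. With cadmium ALDOA had 13.6, 15.1 and 12.2 FPKM (log2 fold change 0.63, adjusted p = 0.094), and with GSK4716 8.33, 5.78 and 6.26 FPKM (-0.38, adjusted p = 0.35). The FPKM of AC093512.2 was 2.86 ± 0.606 in untreated cells and 2.53 ± 0.374 with DES (SD, n = 3). GSK4716 gave 1.10 ± 0.211, cadmium 1.21 ± 0.616 and calcium 1.32 ± 0.370. The sum of both genes was 11.7 ± 1.83 FPKM in untreated cells, 15.0 ± 0.549 with calcium, 16.0 ± 1.84 with DES, 14.8 ± 1.84 with cadmium and 7.89 ± 1.56 with GSK4716. The part of the overlap in the values of ALDOA was not tested.

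The enzymes below aldolase had their highest mean FPKM where DES was combined with a metal, but mostly with a wide spread, and the size of the differences depended on the scaling. In DES with cadmium against cadmium, quantile normalization brought the log2 fold changes to 0.58 for PKM, 0.07 for ENO1, -0.10 for PGK1 and -0.51 for LDHA, from 1.28, 0.98, 0.72 and 0.41. PKM (ENSG00000067225, chromosome 15, 72199029 to 72231822, minus strand), which encodes the pyruvate kinase of tumour cells, had 65.2, 50.0 and 50.8 FPKM with cadmium and 192, 96.6 and 127 FPKM with DES and cadmium. Every library of the second group was above every library of the first. PKM was thus higher by 1.28 on the log2 scale (standard error 0.31, limma adjusted p = 0.0489). The call ended without any 1 of the 6 libraries (adjusted p from 0.0527 to 0.195). Without DES with cadmium replicate 1, whose FPKM carry the strongest scaling, the log2 fold change was 1.01, and after rescaling to total fragments it was 0.94 (adjusted p = 0.0538). With cadmium alone PKM was below every control library (73.0 to 90.3 FPKM), with a log2 fold change of -0.55 (adjusted p = 0.114).

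ENO1 (ENSG00000074800, chromosome 1, 8861000 to 8879250, minus strand) encodes the main enolase. It had 378, 392 and 316 FPKM with calcium, against 240, 292 and 271 in the control (log2 fold change 0.43, adjusted p = 0.183). All 3 calcium libraries were above all 3 of the control. With DES and cadmium it reached 665, 340 and 395 FPKM, against 203, 195 and 290 with cadmium (0.98, adjusted p = 0.119). ENO2, the neuronal isozyme, rose with calcium from 26.4 ± 3.80 to 44.0 ± 3.12 FPKM, and the ratio of ENO1 to ENO2 overlapped between the groups in all 8 comparisons.

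LDHA and PGK1 spread widely within groups. LDHA ranged from 115 to 261 FPKM in the control alone, and from 116 to 438 with DES and cadmium. Its highest values were with DES and calcium, at 249, 336 and 483 FPKM, against 254, 183 and 198 with DES (log2 fold change 0.71, interval 0.02 to 1.41, adjusted p = 0.372). PGK1, the first ATP-forming enzyme of the pathway, had 113 to 167 FPKM in the control and 103 to 137 with calcium (log2 fold change -0.20, interval -0.68 to 0.28). It reached 274, 112 and 208 FPKM with DES and cadmium. Neither gene was called in any of the comparisons, and their intervals were wide.

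**Figure D4:**
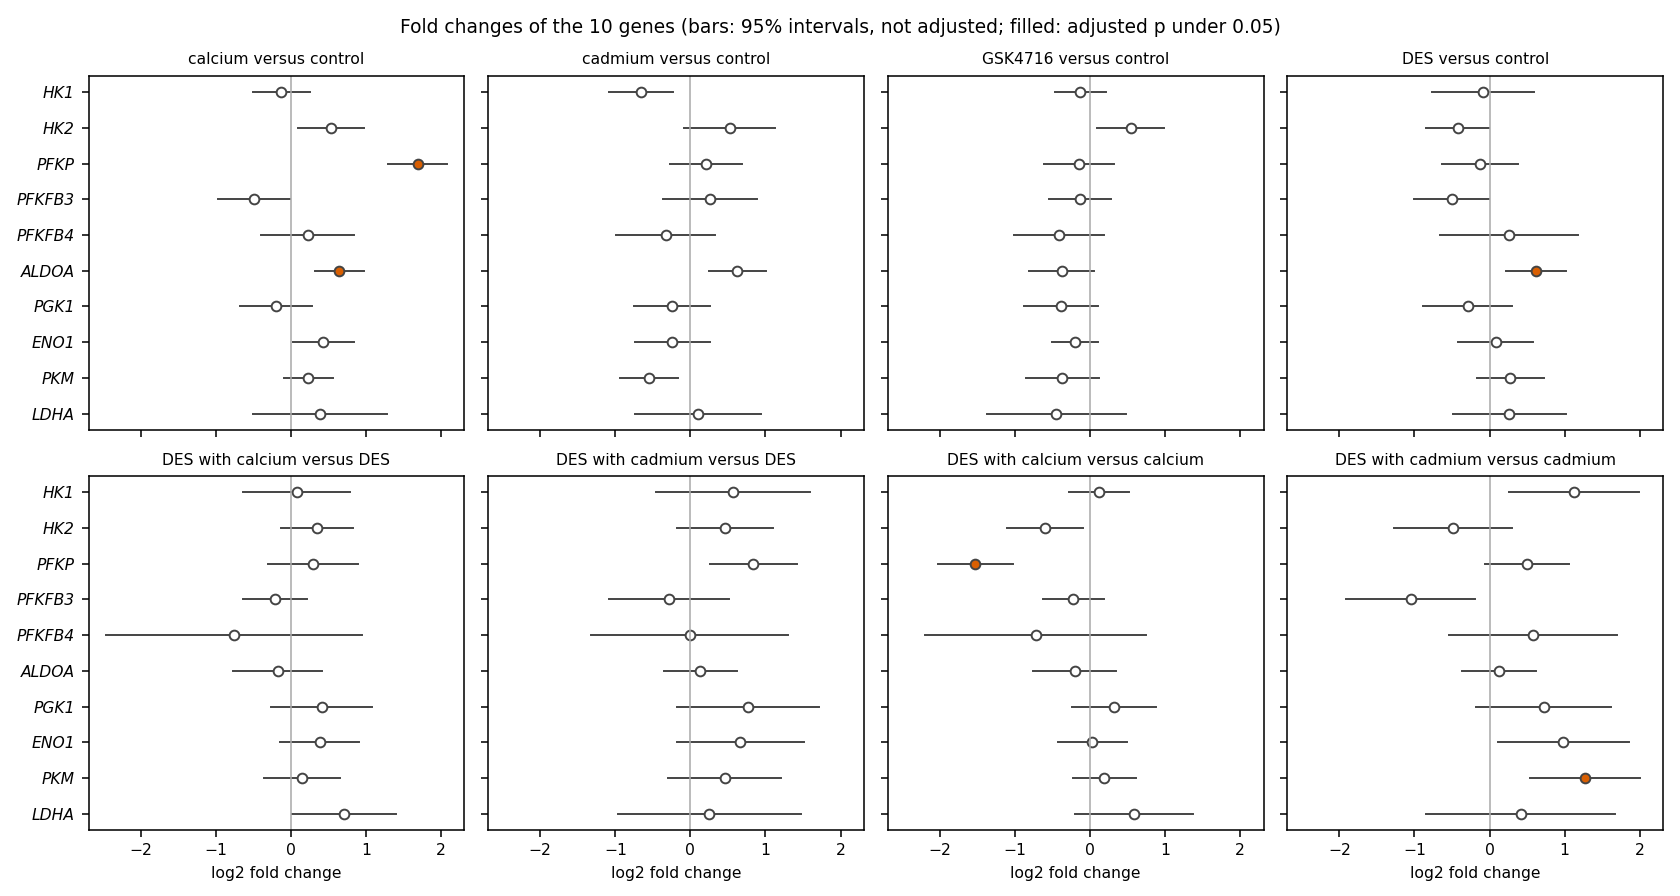
Log2 fold changes of the 10 genes in the 8 pairwise comparisons, with 95% intervals that are not adjusted for multiple tests. Filled points passed the test at an adjusted p under 0.05. The 2 largest changes that passed are both in PFKP, 1.69 with calcium against the control and -1.53 with DES and calcium against calcium.

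Counted over the list, few of the genes passed in any pairwise comparison. With calcium 2 of 10 passed, PFKP and ALDOA, against 7.12% of all genes tested, and the median log2 fold change was 0.31 over the 10 genes and -0.01 over all genes. The former was 0.15 without control replicate 3, 0.46 without control replicate 2, 0.17 with quantile normalization, 0.19 after rescaling to total fragments and 0.20 with limma-voom. With cadmium 0 of 10 passed in limma (3 at an unadjusted p under 0.05, HK1, ALDOA and PKM, and 0 with limma-voom), against 0.15% of all genes. With GSK4716 0 of 10 passed (1 unadjusted, HK2, and 0 with limma-voom), where 0% of all genes did. GSK4716 changed 0 of the 14686 genes in limma, with 2404 at an unadjusted p under 0.05 and 49 called by limma-voom. The median of the 10 genes was -0.28 and 9 of them had a value below 0. Without control replicate 2 the median was -0.16, and with arrayWeights it was -0.14. With DES 1 of 10 passed, ALDOA, against 29.6% of all genes.

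Where a metal was added to DES, 0 of 10 passed in limma with calcium (1 unadjusted, LDHA) and 0 of 10 with cadmium (1 unadjusted, PFKP), and limma-voom called 0 in both. Of all genes, 0.136% and 0.266% passed. In these 2 comparisons libraries of equal replicate number deviated together from their group means (correlations of 0.103 to 0.472). The labels do not give such a pairing. With a replicate block 0 of the 10 genes and 0 of all genes passed in each, in place of 20 and 39 genes. At an unadjusted p under 0.05 the block had 1 of the 10 genes with calcium and 4 with cadmium, where 16.7% and 17.3% of all genes were. Against the metal alone, DES with calcium changed 1 of 10, PFKP, where 35.1% of all genes passed, and DES with cadmium 1 of 10, PKM, where 9.89% did. The interaction with DES was called for 1 of 10 with calcium, PFKP, against 3.63% of all genes. With cadmium it was called for 0 of 10 in limma (3 unadjusted, HK1, ENO1 and PKM, and 0 with limma-voom), against 1.18%.

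The scaling mattered for the comparisons with DES. Rescaling to total fragments moved the median of all genes from 0.05 to -0.13 for DES against the control, from -0.01 to -0.20 for DES with calcium against calcium, and from -0.08 to -0.39 for DES with cadmium against cadmium. For calcium against the control it moved from -0.01 to -0.13. PFKP was still 1.57 higher on the log2 scale with calcium and 1.72 lower (log2 fold change -1.72) with DES and calcium against calcium, both far from these medians. The share of the 10 genes in all FPKM does not depend on the scaling between libraries. It was 0.297% ± 0.052 (SD, n = 3) in the control. Calcium gave 0.353% ± 0.0262, which overlapped the control, cadmium 0.258% ± 0.00521 and GSK4716 0.247% ± 0.0237. DES gave 0.274% ± 0.0166, and its combinations 0.330% ± 0.081 (calcium) and 0.347% ± 0.056 (cadmium).

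Of the 24 other glycolytic enzymes listed, 13 passed the filter. With calcium 1 of 13 was called, ENO2 (log2 fold change 0.74), about the 7.12% of all genes, and with DES 1, PFKM (0.69), below the 29.6% of all genes. With cadmium and GSK4716 0 of 13 were called in limma, where 0.15% and 0% of all genes were. In DES with calcium against calcium, 6 of 13 were called, GPI, TPI1, GAPDH, PFKM and LDHC higher and PFKFB2 lower, where 35.1% of all genes passed. GAPDH, the dehydrogenase that forms NADH, had 563 ± 84.7 FPKM with calcium and 1391 ± 337 with DES and calcium (log2 fold change 1.28, adjusted p = 0.0133). TPI1, which interconverts the triose phosphates, had 87.9 ± 16.0 and 174 ± 27.1 FPKM (0.99, adjusted p = 0.0102). Against cadmium, DES with cadmium changed 3 of 13, GPI, TPI1 and PFKL, all higher, where 9.89% of all genes passed. These calls are not stable, since 0 of all 14686 genes passed in limma without cadmium replicate 1, 2 or 3 or without DES with cadmium replicate 3, and 0 with a replicate block. The count was 1882 with limma-voom. TPI1 went from 54.8 ± 14.4 to 207 ± 70.0 FPKM (1.89, adjusted p = 0.0316), and GPI, which forms fructose 6-phosphate, from 46.3 ± 6.39 to 150 ± 33.2 FPKM (1.67, adjusted p = 0.0305).

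Of 13 glucose and lactate carriers and their chaperone, 6 were tested, and limma called 0 of them with calcium, cadmium or GSK4716, where it called 7.12%, 0.15% and 0% of all genes. The lactate carrier SLC16A1 was low, with 1.45 ± 0.352 FPKM with calcium and 0.410 ± 0.193 with DES and calcium (SD, n = 3, log2 fold change -1.65, adjusted p = 0.0231). SLC16A3, another lactate carrier, was near the filter, which it passed through its calcium libraries, so its 1.17 ± 0.163 and 0.177 ± 0.0804 FPKM are given as values only. Their chaperone BSG rose there by 0.84 and with DES alone by 0.88. SLC2A1, the main glucose carrier of most cells, had 13.2 to 37.9 FPKM and was not called in any of the pairwise comparisons. Among 14 genes of pyruvate entry to mitochondria, 13 were tested. Limma again called 0 with these 3 agents, near the same shares of all genes, 3 with DES (29.6% of all genes), and 8 in DES with calcium against calcium (35.1% of all genes), 6 higher, among them MPC2, a subunit of the pyruvate carrier (log2 fold change 1.26), and 2 lower, among them PDP1 (-1.21). Of 6 gluconeogenesis genes 3 were tested, and FBP1, which opposes phosphofructokinase, fell with calcium (log2 fold change -1.66, adjusted p = 0.0488). It had 1.05 ± 0.42 FPKM with calcium and 6.57 ± 2.02 with DES and calcium (2.57, adjusted p = 0.00476). Of 8 pentose phosphate genes, limma called 0 with calcium, cadmium or GSK4716, also near those shares, and 2 with DES, 1 higher and 1 lower, no more than the 29.6% of all genes.

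The regulators of these genes that were tested numbered 16 of 20. With calcium 1 was called (7.12% of all genes), and with cadmium and GSK4716 0 (0.15% and 0% of all genes). With DES 9 were called, 3 higher and 6 lower, where 29.6% of all genes passed. Of these 9, EGLN2, an oxygen sensor that marks HIF for destruction, rose with DES (log2 fold change 2.12, adjusted p = 0.0013). HIF1AN, an inhibitor of HIF, fell (-1.22, adjusted p = 0.00517). EGLN2 was low, with 1.29 ± 0.129 FPKM in the control and 5.97 ± 1.04 with DES (SD, n = 3). The more abundant EGLN1 and EGLN3 went the other way, from 15.5 ± 1.76 to 9.64 ± 1.35 and from 67.7 ± 13.9 to 28.9 ± 13.7 FPKM. ESRRB itself had 0 to 31 fragments per library and was under the filter. ESRRA, a related receptor known for its metabolic targets, had 25.4 ± 5.13 FPKM in the control and 14.3 ± 3.40 with DES (SD, n = 3). Of 13 hypoxia targets outside glycolysis, 4 were called with calcium (3 higher and 1 lower, where 7.12% of all genes passed). With cadmium or GSK4716 0 were called, where 0.15% and 0% of all genes passed. With DES 4 were called, 3 higher and 1 lower, which is near the 29.6% of all genes. ADM, which encodes the peptide adrenomedullin, rose in both, by 4.09 and 6.02 on the log2 scale. DDIT4, an inhibitor of mTOR signalling, fell with calcium (log2 fold change -0.97, adjusted p = 0.015). Of the 10 glycolysis genes, ALDOA was called higher with both, PFKP with calcium, and the other 8 with neither.

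Over the 21 libraries the mean z score of the 10 genes went up and down most closely with ERG28 (r = 0.804), KRT19 (0.793), C4orf48 (0.783), NSDHL (0.781) and USB1 (0.775), which were searched for among all genes tested. The score shares its libraries and scaling with these genes, so r is given as a description only. Among the 10 genes themselves, ENO1 (0.826), PGK1 (0.797) and PKM (0.790) followed the score most closely, while PFKFB3 (-0.506) and HK2 (-0.237) ran against it.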

How the data were processed

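RNA-seq of 21 MDA-MB-453 libraries was analysed. The authors deposited FPKM values per gene with gene length and annotation. The submitters' processing notes name GRCh38.p14, HISAT2 2.0.5 and featureCounts 1.5.0-p3, and the study's methods name DESeq2 and edgeR, neither of which was run here. The deposited protocol gives directional or non-directional libraries, so overlapping genes are uncertain. In each library 100% of the products of FPKM and gene length were whole multiples of the smallest step (tolerance 0.01), which gave the fragments on genes, 14435925 to 28424805 per library. No pair of libraries shared the same fragment number for more than 4.97% of genes.

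The 14686 genes that averaged 0.5 FPKM or more across all 21 libraries were tested in R 4.3.3 with limma 3.58.1 (lmFit, eBayes with a trend) on log2(FPKM + 0.1), with only the groups compared, two-sided, and Benjamini-Hochberg adjustment over all genes tested (threshold 0.05). Fold changes on this scale understate changes of low genes. Balances of isozymes were tested by exact two-sided permutation with scipy 1.17.1. Steps were tested on simulated data. Tables were made with pandas 2.3.3 and numpy 2.4.6 and figures with matplotlib 3.10.9, in Python 3.11.15.

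The 10 genes were described in full. Of each gene list, up to 4 genes with the smallest adjusted p in the 7-group test were named, and any other gene was named after its values were seen. The members and lists were chosen with earlier results of these data known. Lists were other glycolytic enzymes, glucose and lactate transport, pyruvate entry to mitochondria, gluconeogenesis, pentose phosphate pathway, regulators, hypoxia targets and markers of 5 cell types. Some list members are not reported here. Equal replicate numbers were checked for pairing by the correlation of deviations from group means. Adding calcium to DES gave 0.132, 0.103 and 0.280, and adding cadmium 0.472, 0.121 and 0.313. In the other pairwise comparisons at least 1 pair was under 0.1.

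Alternatives were limma-voom on the recovered fragments, a replicate block, arrayWeights, a fit of all 7 groups, 3 other scalings (total fragments, median ratio, quantile), a pseudocount of 1, no filter, a minimum mean of 2 FPKM, and leaving out each library.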

Additional observations from a re-analysis of the deposited data

Results flagged for a closer look

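The effect of calcium on PFKP differed with DES by the interaction term, which was -1.40 on the log2 scale (limma, adjusted p = 0.0342). Calcium raised the mean of PFKP from 27.9 to 89.3 FPKM without DES, and with DES the means were 25.5 without and 31.6 with calcium. The interaction was negative with each of the 12 libraries left out, but the call ended for 6 of the 12 (adjusted p up to 0.0917) and with no filter on low values (adjusted p = 0.172).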

How the results depend on the processing

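Of the 100 pairs of a gene and a comparison, 6 were called, and all 6 kept their direction under all alternatives run. Of the 94 not called, 65 kept their direction and 29 did not under at least 1 alternative. With no filter on low values the genes called were 0 for calcium, DES, DES with calcium against calcium, DES with cadmium against cadmium and the calcium interaction, and 4 over the 7 groups. Of all 58735 genes, 30, 1715, 1006, 52, 84 and 7908 were called there in that order. Rescaling to total fragments gave 1 for calcium, 2 for DES with calcium against calcium and 0 for DES with cadmium against cadmium, and for DES 1 that was lower (HK2) in place of ALDOA. It called 1119, 5300, 1426 and 4408 of 14760 genes in these comparisons. Quantile normalization gave 3 for DES (HK2, PGK1 and ENO1, all lower), 3 for DES with calcium against calcium, 0 for DES with cadmium against cadmium and 5 over the 7 groups. Its calls over all 14686 genes were 4618, 4967, 1399 and 8893. All 7 groups in one fit gave 1 for calcium, 1 for DES with cadmium against DES (PFKP) and 4 for DES with cadmium against cadmium. That fit called 743, 603 and 5459 of all 14686 genes. Limma-voom gave 1 for calcium, 2 for DES with calcium against calcium and, for DES, HK2 in place of ALDOA, with 1586, 5859 and 4754 of all genes called. ArrayWeights gave 3 for calcium, 8 for cadmium, 2 for DES, 2 for DES with cadmium against DES, 8 for DES with cadmium against cadmium, 2 and 8 for the calcium and cadmium interactions and 10 over the 7 groups. In the same order it called 2270, 8325, 10334, 1976, 8241, 2624, 6358 and 13292 of all 14686 genes. Control replicate 1 had a weight of 10.7 in the fit of 7 groups, and the weights for cadmium did not converge. The replicate block gave 1 for calcium, 0 for DES, 2 for DES with calcium against calcium (LDHA added) and 0 for DES with cadmium against cadmium. All genes called by it were 260, 3117, 5149 and 0. In each of these comparisons at least 1 pair of equal replicate number had a correlation under 0.1.

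With single libraries left out the genes called were 0 to 1 for calcium (0 without control replicate 1), 0 to 2 for cadmium (HK1 and PKM without cadmium replicate 1), 0 to 1 for DES, 1 to 2 for DES with calcium against calcium, 0 to 0 for DES with cadmium against cadmium and 0 to 2 for the calcium interaction. The cause of these changes was not tested. Over all genes the calls ranged from 7 to 2270 for calcium, 1 to 8325 for cadmium, 0 to 846 for GSK4716, 1715 to 10334 for DES and 0 to 8241 for DES with cadmium against cadmium. They ranged from 1006 to 5859 for DES with calcium against calcium, 84 to 2624 and 15 to 6358 for the calcium and cadmium interactions, and 6495 to 13292 over the 7 groups. The 11 balances of isozymes without overlap kept their direction under all settings run. Over the other 21, 11 of 147 recomputed values changed sign.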
